A study of Mus musculus with 2 samples.

Results

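The Krüppel-like factors measured here were the 8 genes Klf2, Klf3, Klf4, Klf6, Klf7, Klf9, Klf10 and Klf13. They were taken by symbol from the 31053 genes of 2 single-cell RNA libraries of mouse lung, 1 labelled Normoxia and 1 labelled Hypoxia. Both libraries came from the NG2tdT cross of NG2-CreERTM with Ai14 tdTomato, in which Cre driven from the promoter of Cspg4 (the NG2 proteoglycan of pericytes) switches on the red reporter once tamoxifen is given. The mice received 2 mg tamoxifen per 30 g body weight and rested for 7 days. The Hypoxia mice were then kept at 10% inspired oxygen for 21 days, and the Normoxia library is labelled untreated. The labels give neither age nor sex, and the study's general methods describe adult male mice. Whether animals were pooled for a library is not given in the sources used here.

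After filtering, 293 Normoxia cells with a median of 3135 UMIs (tags that mark single captured transcripts) and 453 Hypoxia cells with a median of 2818 UMIs were retained, and 1 retained barcode occurred in both libraries. The labels describe sorted tdTomato-positive cells, but the data went against a pericyte library: Cspg4 had 1 UMI in the Normoxia library and 2 UMIs in the Hypoxia library. Marker genes chosen per class named 87 Normoxia and 169 Hypoxia cells endothelial cell-like, 31 and 54 B cell-like, 13 and 76 T or NK cell-like, 39 and 21 fibroblast-like, 9 and 35 macrophage or monocyte-like, and 2 and 28 neutrophil-like. The cells of 5 further clusters stayed unnamed. With 1 library per group no test was possible, and every difference is one between these 2 libraries. Intervals have 95% confidence and take in the error of counting alone.

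Krüppel-like factors are transcription factors that bind GC-rich and CACCC elements through a run of zinc fingers. Klf2 and Klf4 are induced in endothelium by laminar flow through the kinase cascade of MEKK3, MEK5 and ERK5, which activates MEF2 factors at their promoters. Both raise antithrombotic and vasodilator genes such as Thbd and Nos3. In lymphocytes Klf2 maintains quiescence and recirculation, and Klf4 takes part in monocyte differentiation. The remaining members have broader roles: Klf6 and Klf10 respond to injury and TGF-beta, Klf3 is a repressor that recruits CtBP, Klf9 and Klf13 bind the SIN3A corepressor, and Klf9 is also induced by glucocorticoids.

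The sequences just upstream of Klf2 and Klf4 are shown because these members carried most of the UMIs in endothelium and differ in MEF2 matches, the element that the flow cascade acts on. Klf2 lies at chr8:72319033-72321656 on the plus strand and Klf4 at chr4:55527143-55532466 on the minus strand (GRCm38, GENCODE M21; both protein-coding). The stretches start 250 bases and end 51 bases before the RefSeq gene start, on the strand of the gene, at chr8:72318812-72319011 for Klf2 and chr4:55532526-55532725 for Klf4 (RefSeq, GRCm38.p6). Capitals mark matches to the MEF2 motif, to GGGCGG and to ACGTG on either strand.
Klf2: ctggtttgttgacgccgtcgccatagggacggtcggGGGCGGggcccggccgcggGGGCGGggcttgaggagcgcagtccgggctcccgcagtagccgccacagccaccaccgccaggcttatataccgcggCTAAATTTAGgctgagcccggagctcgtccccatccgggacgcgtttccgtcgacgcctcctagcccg
Klf4: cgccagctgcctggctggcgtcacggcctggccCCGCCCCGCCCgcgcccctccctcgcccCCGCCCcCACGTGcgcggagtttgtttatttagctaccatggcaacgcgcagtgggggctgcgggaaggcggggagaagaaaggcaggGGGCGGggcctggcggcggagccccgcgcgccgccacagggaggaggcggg

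In the 250 bases upstream of Klf2 there was 1 match to the MEF2 motif, 118 to 109 bases before the start, and 2 matches to GGGCGG, the GC box. The Klf4 window held 4 matches to GGGCGG, of which a pair shares 1 base. It also held a palindrome that matches ACGTG, a form of the core of the hypoxia response element, on both strands. It held no match to MEF2 or to CACCC. Among 32851 windows of this length over all genes, 2.92% had a MEF2 match, 32.7% GGGCGG, 16.6% ACGTG and 52.0% CACCC. Of the 8 members 7 had a listed window, and among these only Klf2 had a MEF2 match, whereas GGGCGG occurred in 6 and ACGTG in Klf4, Klf6 and Klf9. GCGTG, another form of the core of the hypoxia response element, occurred in Klf3, Klf6, Klf9 and Klf13, against 28.2% of all windows. The member windows held from 59.2% (Klf7) to 78.4% (Klf3) G and C, against a median of 52.4% over all windows. The part of this in the GGGCGG matches was not tested. A match in a window is a description of letters and not a bound site.

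The first question was in which cells the members were found. Levels are UMIs per 1000000 UMIs of a class (CPM). Because the 3′ chemistry tags each transcript at its end, they were not divided by gene length. In the endothelial cell-like cells Klf2 was the most abundant member, at 3660 CPM (3426 to 3906, 906 UMIs) in Normoxia and 2728 CPM (2597 to 2865, 1617 UMIs) in Hypoxia. Its level ranked 14 among 5869 genes in Normoxia and 28 in Hypoxia. Klf4 followed with 1285 CPM (1147 to 1434) and 1022 CPM (943 to 1107). Next in Normoxia came Klf7 with 598 CPM, Klf13 with 351, Klf6 with 347, Klf9 with 327 and Klf3 with 242 CPM, while Klf10 had 10 UMIs (40.4 CPM). Among Klf13, Klf6, Klf9 and Klf3 the neighbours in this order had overlapping intervals.

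**Figure D1:**
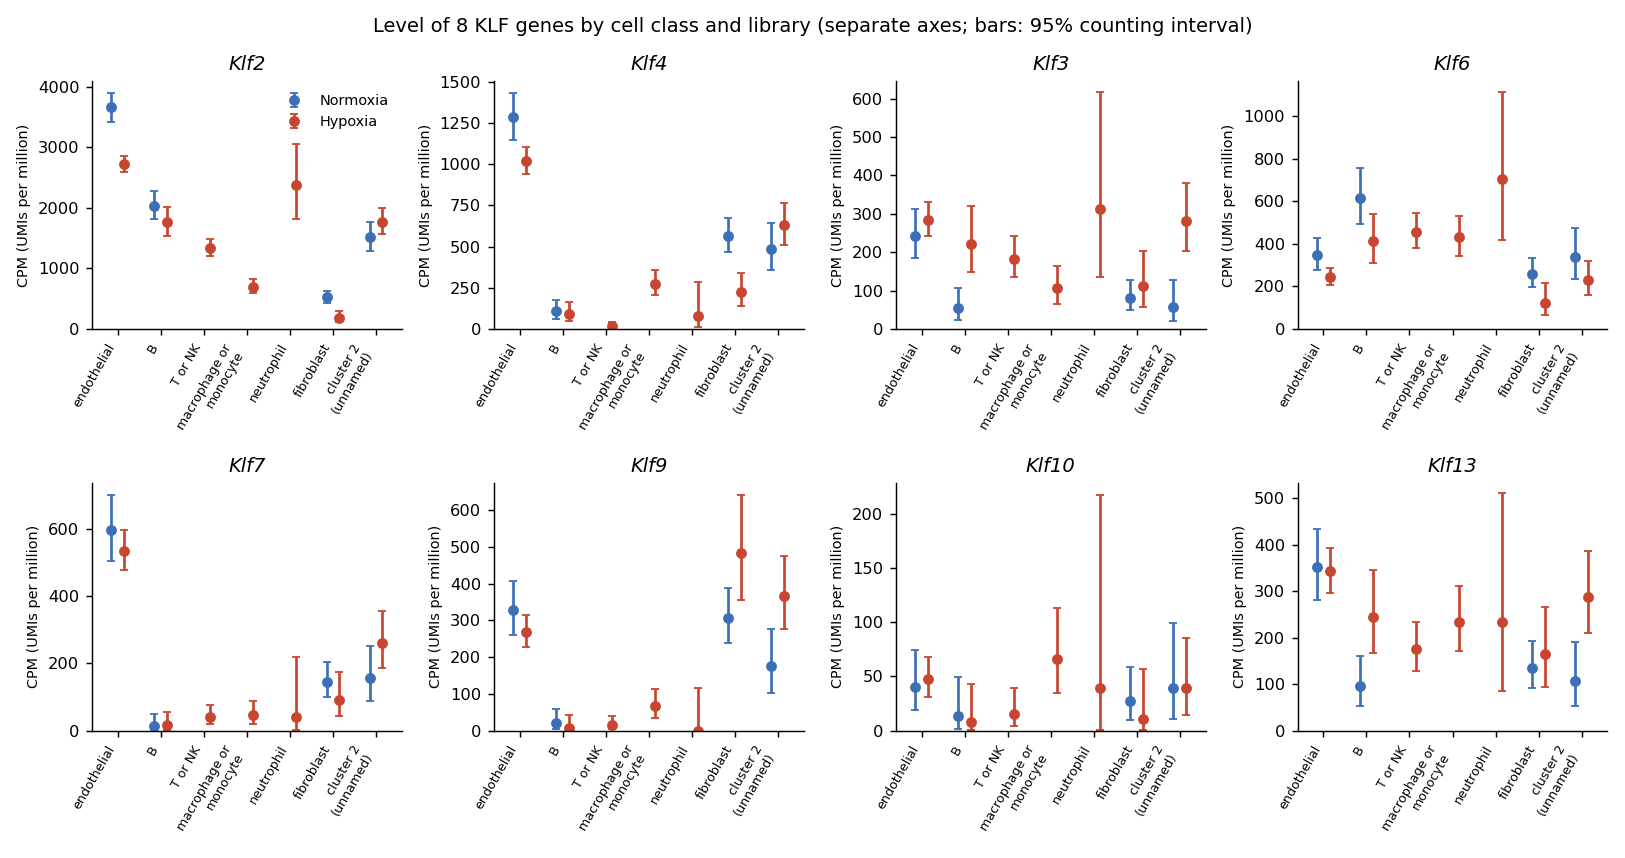
Level of each member in CPM (linear axis from 0, a separate scale per gene) in each cell class with at least 20 cells, with Normoxia in blue, Hypoxia in red and bars for the 95% counting interval. Klf2, Klf4 and Klf7 were highest in the endothelial cell-like cells in both libraries, and Klf9 reached 483 CPM in the fibroblast-like cells of Hypoxia.

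Klf2 was also abundant in lymphocytes, whereas Klf4 and Klf7 were not. In Normoxia, Klf2 had 2037 CPM (1813 to 2282) in B cell-like cells, below endothelium and above the 523 CPM of fibroblast-like cells. In Hypoxia the order of Klf2 was endothelial cell-like, neutrophil-like (2385 CPM), B cell-like (1764), T or NK cell-like (1335), macrophage or monocyte-like (700) and fibroblast-like (185). Only the interval of the neutrophil-like cells, from 1824 to 3064 CPM on 61 UMIs, overlapped those of both its neighbours. Klf4 had 109 CPM in the B cell-like cells of Normoxia and 19.0 CPM (5 UMIs) in the T or NK cell-like cells of Hypoxia, and Klf7 had 2 UMIs in the B cell-like cells of each library.

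Free RNA from endothelial cells was judged from 11 endothelial markers. In B cell-like cells these stood at a median of 0.277% (Normoxia) and 0.867% (Hypoxia) of their endothelial level, with a highest value of 18.8% and 13%. Klf2 stood at 55.7% and 64.7% of its endothelial level in the same cells, above every marker. Klf4 stood at 8.49% and 9.0%, below Ptprb in Normoxia and below Ptprb and Pecam1 in Hypoxia, and above every other marker. The highest of those other markers were Pecam1 at 7.73% in Normoxia and Tie1 at 1.87% in Hypoxia. Whether the Klf4 UMIs in these cells are expression or free RNA was not tested, so they are not read as either. In the fibroblast-like cells, where the markers reached at most 14.4% and 11.4%, Klf4 stood at 43.9% and 22.1%, while Klf2 stood at 14.3% and 6.78%, within that range.

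Seen per cell, after each cell was thinned to 1000 UMIs (1 endothelial cell-like cell of Normoxia and 4 of Hypoxia were shallower), a Klf2 UMI was found in 83 of 86 Normoxia cells (96.5%, exact interval 90.1 to 99.3%) and 148 of 165 Hypoxia cells (89.7%, 84.0 to 93.9%). Unthinned, Klf2 was found in every Normoxia cell and in 98.2% of Hypoxia cells. In fibroblast-like cells of Normoxia, with a median of 5440 UMIs against 2536 in the endothelial cell-like cells, it was found in 18.4% of thinned cells. Klf4 was found in 66.3% (55.3 to 76.1%) and 58.8% (50.9 to 66.4%) of thinned cells and in 92.0% and 85.2% unthinned. Both genes were detected together in 55 of 86 and 87 of 165 cells, and Klf4 without Klf2 in 2 and 10 cells. Of the classes of Hypoxia with at least 20 cells, the T or NK cell-like cells had the lowest Klf4 level. There Klf4 was found in 2.63% of thinned cells and in 6.58% unthinned. Their median depth was 3150.5 UMIs, against 2879 in the endothelial cell-like cells. In B cell-like cells Klf4 was found in 5 of 31 thinned Normoxia cells (16.1%) and 5 of 53 Hypoxia cells (9.43%), always together with Klf2. The median endothelial cell-like cell held UMIs of 3 of the 8 members in either library (lowest 0, highest 6).

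Klf9 and Klf6 had a different distribution. Klf9 was 327 CPM in endothelial cell-like and 307 CPM in fibroblast-like cells of Normoxia, with overlapping intervals. It had 662 CPM (535 to 810) in the 45 Normoxia cells of cluster 6, an unnamed cluster led by Hhip, Igfbp3 and Rgs5 with 6 of 10 fibroblast and 4 smooth muscle markers, and with Acta2, Tagln, Myl9 and the pericyte gene Kcnj8 among its leading genes. In B cell-like cells it had 3 UMIs in Normoxia and 1 UMI in Hypoxia. Klf6 had its highest level, 1861 CPM (1511 to 2268), in the 17 Normoxia cells of cluster 1, an unnamed cluster led by Calca, Il1rl1 and Arg1, in which Klf2 had 4 UMIs. There 26.5% of the Klf6 UMIs came from 1 cell. Among the named classes of Normoxia with at least 20 cells, Klf6 was highest in B cell-like cells at 613 CPM (493 to 754), above the 347 CPM of endothelial cell-like cells.

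The comparison of Hypoxia with Normoxia was made within the endothelial cell-like cells. Klf2 and Klf4, the flow-linked members, and Klf6 were lower in Hypoxia with intervals that left out equality, and no member differed 2 fold. For Klf2 the log2 ratio of Hypoxia to Normoxia was -0.42 (-0.54 to -0.30), a level 25.5% lower. For Klf4 it was -0.33 (-0.53 to -0.13), a level 20.4% lower, and for Klf6, on 86 and 144 UMIs, -0.52 (-0.91 to -0.11). The per-cell level of Klf2 had a median of 3620 CPM with quartiles of 2190 and 4949 in Normoxia, and a median of 2586 with quartiles of 1688 and 4023 in Hypoxia, so the cells of the libraries overlapped widely.

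The other 5 members had intervals that included equality. The log2 ratio was -0.29 (-0.68 to 0.12) for Klf9, -0.16 (-0.45 to 0.13) for Klf7, -0.04 (-0.41 to 0.34) for Klf13, 0.23 (-0.21 to 0.68) for Klf3 and 0.23 (-0.86 to 1.43) for Klf10. The number of members at least 2 fold higher was 0 of 8, against 6% of 5869 genes with at least 20 UMIs, and the number at least 2 fold lower was 0 of 8, against 4.58%. The median log2 ratio was -0.22 over the members and -0.003 over all 5869 genes, and 6 of 8 members were below 0 against 50.1% of all genes. Among the 70 genes within 2 fold of the level of Klf2, 18.6% had an equal or lower ratio, and among 233 such genes for Klf4, 21.0%.

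**Figure D2:**
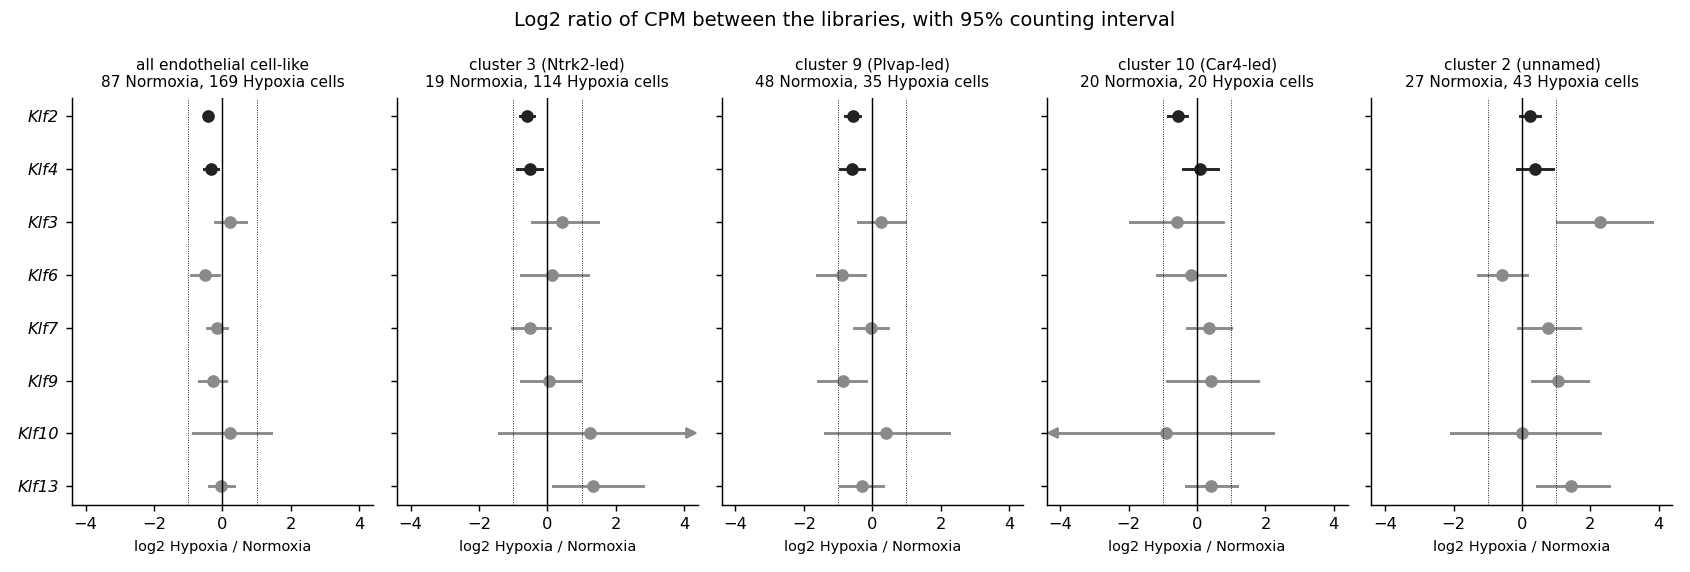
Log2 ratio of CPM in Hypoxia to Normoxia (x axis) for each member (y axis, Klf2 and Klf4 in black) in all endothelial cell-like cells and in single clusters, with lines for the 95% counting interval, arrows where it leaves the axis and dotted lines at 2 fold. Klf2 lay between -0.60 and -0.57 in clusters 3, 9 and 10 and at 0.22 in cluster 2.

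The endothelial cell-like cells were a mixture that differed between the libraries. Cluster 3, led by Ntrk2, held 19 Normoxia and 114 Hypoxia cells. Its Normoxia part is thus below the minimum of 20 cells that was set for compared classes, which limits its ratios. Cluster 9, led by Plvap, held 48 and 35, and cluster 10, led by Car4, held 20 of each. Within each of these clusters Klf2 was lower in Hypoxia, from 4420 to 2926 CPM in cluster 3, from 3485 to 2347 CPM in cluster 9 and from 3447 to 2326 CPM in cluster 10. The log2 ratios were -0.60 (-0.81 to -0.38), -0.57 (-0.79 to -0.35) and -0.57 (-0.85 to -0.28), and their unweighted mean was -0.58. Klf4 was lower in clusters 3 and 9, at -0.52 (-0.88 to -0.15) and -0.59 (-0.95 to -0.24), and was 911 and 969 CPM in cluster 10, at 0.09 (-0.41 to 0.60).

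Cluster 2, which had all 11 endothelial markers but was led by the airway gene Scgb1a1 together with Vwf and Edn1, stayed unnamed and held 27 Normoxia and 43 Hypoxia cells. There Klf2 had 1515 and 1767 CPM, a log2 ratio of 0.22 (-0.07 to 0.52), and Klf4 486 and 628 CPM, a ratio of 0.37 (-0.14 to 0.89). Of 7 members with at least 20 UMIs, 3 were at least 2 fold higher in Hypoxia, against 14.5% of 2051 genes, and 0 at least 2 fold lower, against 10.3%. These were Klf3 at 2.27 (1.03 to 3.80) on 6 and 43 UMIs, Klf13 at 1.43 (0.45 to 2.53) on 11 and 44 UMIs, and Klf9 at 1.07 (0.28 to 1.92) on 18 and 56 UMIs. The make-up of cluster 2 differed between the libraries: the 10 fibroblast markers summed to 4973 CPM in Normoxia (3 at 0, Inmt included) and 190 CPM in Hypoxia (7 at 0, Col1a2 and Pdgfra included), and the 5 alveolar type 2 markers, none at 0, to 17122 and 3147 CPM. The 6 airway markers summed to 68062 CPM (Foxj1 and Ccdc113 at 0) and 98995 CPM (none at 0), the 4 mesothelial markers, none at 0, to 1379 and 131 CPM, and the 11 endothelial markers, none at 0, to 5623 and 9678 CPM. Their part in the values of Klf3, Klf13 and Klf9 was not tested. With cluster 2 counted as endothelial the ratio of Klf2 became -0.26, and in cells gated on endothelial markers without clustering (106 and 203 cells) it became -0.18.

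The smaller members varied more between clusters. In cluster 3, Klf13 was at 1.33 (0.17 to 2.81), from 6 UMIs in Normoxia to 121 in Hypoxia, and Klf10 at 1.25 (-1.41 to 6.62) on 1 and 19 UMIs, so that 2 of 8 members were at least 2 fold higher, against 12.9% of 3823 genes, and 0 at least 2 fold lower, against 7.77%. In cluster 9, Klf6 was at -0.89 (-1.61 to -0.21) and Klf9 at -0.87 (-1.57 to -0.19), and 0 of 7 members with at least 20 UMIs reached 2 fold in either direction (5.27% of 2428 genes higher, 6.96% lower). In cluster 10 the number was likewise 0 of 7 (5.26% of 1407 genes higher, 5.76% lower).

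Other genes moved with these differences. The 11 endothelial markers, none of them at 0 in either library, summed to 23310 CPM in the endothelial cell-like cells of Normoxia and 17581 CPM in Hypoxia. The 21 immediate early genes, transcription factors and feedback regulators switched on within minutes of stimulation or of tissue dissociation, summed to 6965 and 4579 CPM, a log2 ratio of -0.60 (-0.69 to -0.52). The ratio was nearest to 0 in cluster 3 (-0.25), followed by cluster 10 (-0.53) and cluster 9 (-0.80). An immediate early share at or below the median of this class was found in 27 Normoxia and 101 Hypoxia endothelial cell-like cells. In these cells Klf2 was at -0.33, Klf4 at -0.36 and Klf9 at 1.16, against -0.42, -0.33 and -0.29 in the whole class. The subset can differ from the whole class in its mix of clusters, which was not tested. The 10 heat shock genes summed to 3171 and 4125 CPM, a ratio of 0.38 (0.26 to 0.50). The part of dissociation and of the endothelial make-up in the lower Klf2 and Klf4 was not tested.

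Among single immediate early genes, 17 of 21 had at least 20 UMIs, of which 0 were at least 2 fold higher (6% of all genes) and 5 at least 2 fold lower (4.58%), with a median log2 ratio of -0.63. The AP-1 subunits Fos and Fosb and the stress-induced factor Atf3 had ratios of -2.16 (-2.77 to -1.57), -2.65 (-4.04 to -1.42) and -3.26 (-4.59 to -2.11), and the cytokine-signalling inhibitor Socs3 -1.05 (-1.62 to -0.47).

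The genes around Klf2 and Klf4 in their pathway were read in the same endothelial cell-like cells. Of 12 genes listed upstream of them (flow sensors, the MEKK3 cascade, MEF2 factors and the CCM complex that restrains MEKK3), 10 had at least 20 UMIs, of which 2 were at least 2 fold higher (6% of all 5869 genes), 0 at least 2 fold lower (4.58%) and 7 above 0, with a median log2 ratio of 0.31 against -0.003 over all genes. Piezo1, a mechanically gated ion channel, had 7 and 38 UMIs and a ratio of 1.18 (0.00 to 2.59). Map3k3, which encodes MEKK3, had 3 and 19 UMIs and a ratio of 1.40 (-0.36 to 3.80). Mef2c, a MEF2 factor of endothelium, was 113 and 196 CPM, a ratio of 0.79 (0.19 to 1.44). The 3 genes below 0 were Pdcd10 and Ccm2 of the CCM complex, at -0.11 and -0.41, and Map2k5, which encodes MEK5, at -0.18, each with an interval that included equality.

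Of 10 endothelial genes induced by Klf2 or Klf4, 8 had at least 20 UMIs, of which 1 was at least 2 fold higher (6% of all genes), 0 at least 2 fold lower (4.58%) and 7 above 0, with a median of 0.39. Nos3, endothelial nitric oxide synthase, had 5 and 35 UMIs and a ratio of 1.55 (0.19 to 3.26). Thbd, the thrombin receptor thrombomodulin, was 1224 and 1465 CPM, a ratio of 0.26 (0.07 to 0.45). Tek, the angiopoietin receptor, was the gene of this list below 0, at -0.29 (-0.64 to 0.06). Of 9 endothelial genes that Klf2 or Klf4 repress, 3 had at least 20 UMIs and 0 reached 2 fold (6% of all genes higher, 4.58% lower). Among them Ace, the angiotensin-converting enzyme, was at 0.23 and Edn1, the vasoconstrictor endothelin-1, at -0.09. Summed, the induced genes were at 0.28 (0.16 to 0.40) in all endothelial cell-like cells. By cluster the sum was at 0.19 (-0.04 to 0.43) in cluster 3 and 0.15 (-0.05 to 0.35) in cluster 9. In cluster 10 it was at -0.14 (-0.45 to 0.17). Each cluster interval included equality, and the part of the differing cluster mix in the value of the whole class was not tested.

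**Figure D3:**
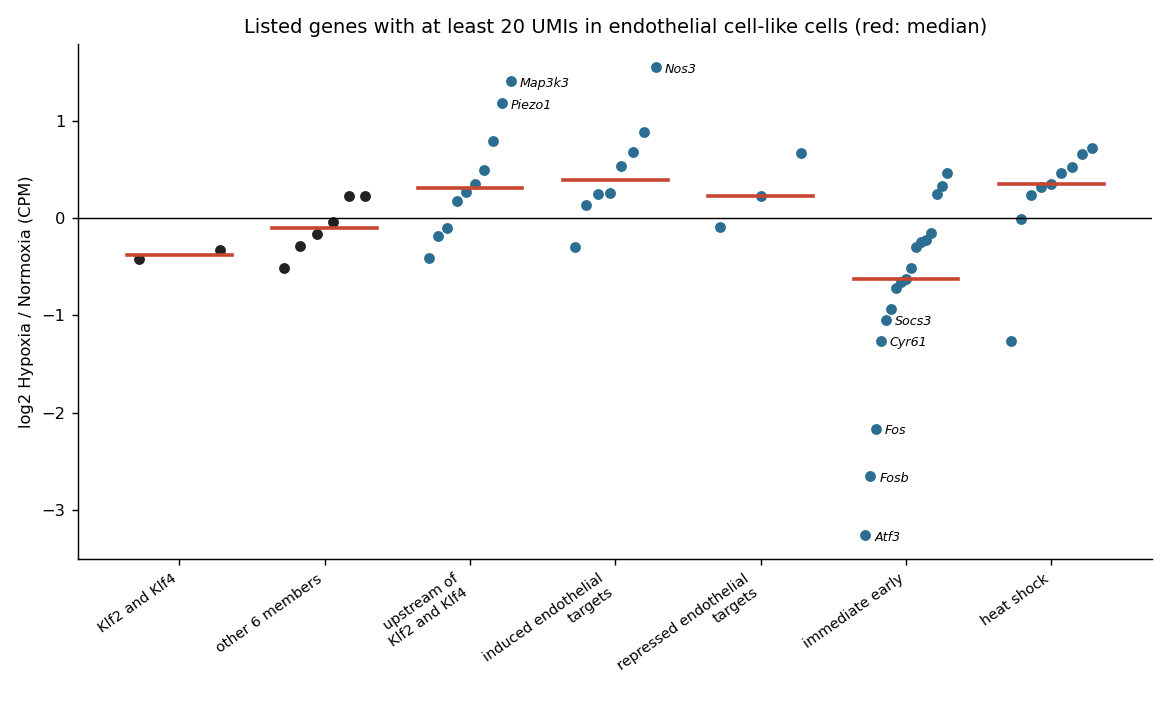
Log2 ratio of Hypoxia to Normoxia (y axis) in endothelial cell-like cells for each listed gene with at least 20 UMIs, by list (x axis), with a red line at the median of the list. Klf2 and Klf4 and most immediate early genes lay below 0, while 7 of 8 induced endothelial targets lay above 0.

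Of 6 glucocorticoid-induced genes 4 had at least 20 UMIs. Among these 1 was at least 2 fold higher (6% of all 5869 genes) and 0 at least 2 fold lower (4.58%). Ddit4, an mTORC1 inhibitor also induced by hypoxia, had 2 and 35 UMIs, a ratio of 2.87 (0.91 to 5.97). Of 13 further KLF and SP family genes 4 had at least 20 UMIs (Klf11, Sp1, Sp2 and Sp3). Of these 0 differed 2 fold, against the same 6% and 4.58% of all genes. Klf14 and Klf17 had 0 UMIs in either library. Klf5 had 1 UMI in the endothelial cell-like cells of each library.

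The weight of the flow-linked pair among the 8 members was then compared. Klf2 and Klf4 made up 72.2% (70.0 to 74.3%) of the member UMIs in endothelial cell-like cells of Normoxia and 68.6% (66.9 to 70.2%) in Hypoxia, with intervals that overlapped slightly. Summed, the pair was at -0.40 (-0.50 to -0.30) and the other 6 members at -0.15 (-0.31 to 0.01). Within cluster 3 the share was 79.1% (74.6 to 83.2%) and 70.2% (68.3 to 72.1%), with separate intervals. The intervals overlapped in cluster 9 (68.8% and 64.7%), cluster 10 (73.6% and 65.1%) and cluster 2 (69.6% and 62.0%). The number of Klf2 UMIs per Klf4 UMI was 2.85 in Normoxia and 2.67 in Hypoxia.

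**Figure D4:**
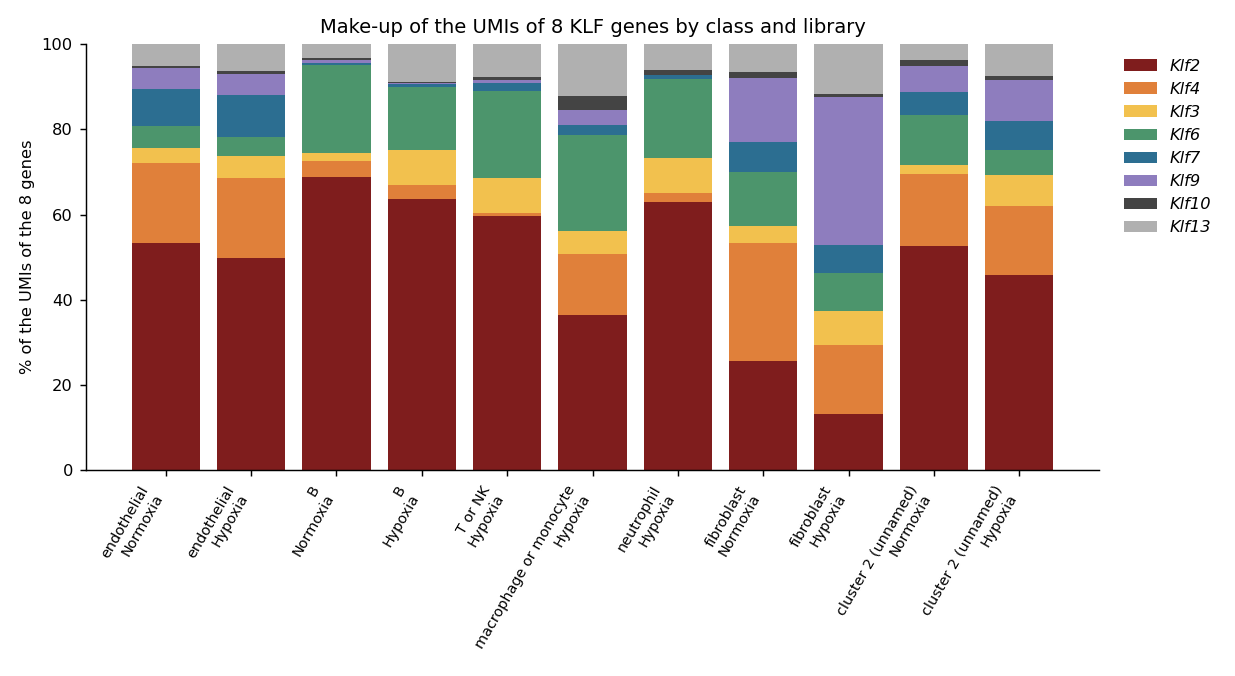
Share of each member (y axis, percent of the UMIs of the 8 genes) by cell class and library (x axis) for classes with at least 20 cells. Klf2 and Klf4 together took 72.2% and 68.6% in endothelial cell-like cells, and Klf2 alone 68.9% and 63.7% in B cell-like cells.

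The make-up of the pool differed between classes. In B cell-like cells Klf2 alone took 68.9% (64.3 to 73.2%) in Normoxia and 63.7% (58.5 to 68.7%) in Hypoxia, with about 19 Klf2 UMIs per Klf4 UMI in both (18.7 and 19.2). In fibroblast-like cells Klf4 was as frequent as Klf2 (0.93 and 0.82 Klf2 UMIs per Klf4 UMI). The endothelial cell-like cells held 49.5% of the Klf2 UMIs of the Normoxia library and 59.2% of those of the Hypoxia library, against 22.3% and 37.2% of all UMIs. For Klf7 these shares were 62.2% and 78.3%, and for Klf6 they were 15.6% and 27.1%, below the share of all UMIs.

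In B cell-like cells Klf3 and Klf13 were higher in Hypoxia. On 8 Normoxia and 29 Hypoxia UMIs, Klf3 was 54.5 and 222 CPM, a log2 ratio of 2.03 (0.86 to 3.37). Klf13, known from T lymphocytes as an activator of Ccl5, had 14 and 32 UMIs, 95.4 and 245 CPM, a ratio of 1.36 (0.42 to 2.38). Of 5 members with at least 20 UMIs, 2 were at least 2 fold higher, against 11.9% of 1384 genes, and 0 at least 2 fold lower, against 5.78%. Klf2 was at -0.21 (-0.46 to 0.04) and Klf6 at -0.57 (-1.08 to -0.06). Of 5 lymphocyte genes that Klf2 controls, 4 had at least 20 UMIs in these cells and 1 was at least 2 fold higher: the homing receptor Ccr7, with 19 and 72 UMIs and a ratio of 2.09 (1.35 to 2.90).

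The B cell-like cells of the libraries also differed in depth and make-up. Their median was 4114 UMIs in Normoxia and 1862 in Hypoxia. The 7 B cell markers, none at 0, summed to 8565 and 18583 CPM, the 5 plasma cell markers to 654 CPM (Jchain, Derl3 and Tnfrsf17 at 0) and 5875 CPM (none at 0), and the 14 T or NK cell markers to 34.1 and 429 CPM, with 10 of them, Cd3e, Trac and Cd8a included, at 0 in Normoxia and 7 at 0 in Hypoxia. Their part in the higher Klf3 and Klf13 was not tested. After thinning to 1000 UMIs, a Klf3 UMI was found in 3 of 31 and 10 of 53 cells. A Klf13 UMI was found in 1 of 31 (3.23%, 0.08 to 16.7%) and 11 of 53 cells (20.8%, 10.8 to 34.1%). The exact intervals of the libraries overlapped for both genes.

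In fibroblast-like cells Klf2, Klf4 and Klf6 were lower in Hypoxia and Klf9 was higher. Klf2 had 523 and 185 CPM, a log2 ratio of -1.50 (-2.30 to -0.78). Klf4 had 564 and 226 CPM, a ratio of -1.32 (-2.04 to -0.66), and Klf6 257 and 123 CPM, a ratio of -1.06 (-2.09 to -0.14). Klf9, the member with the highest level in the Hypoxia cells of this class, had 307 and 483 CPM, a ratio of 0.66 (0.09 to 1.21). Of 7 members with at least 20 UMIs, 3 were at least 2 fold lower, against 11.2% of 2392 genes, and 0 at least 2 fold higher, against 6.1%.

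Few cells carried these fibroblast values. A Klf2 UMI was found in 7 of 38 thinned Normoxia cells and 6 of 16 Hypoxia cells, the opposite order to the CPM. Klf4 was found together with Klf2 in 3 and without it in 8 of the 38 Normoxia cells. In the 16 Hypoxia cells these numbers were 2 and 2. No order is read from the shares of either gene. A single cell held 14.7% of the Klf2 UMIs in Normoxia and 27.8% in Hypoxia. The summed immediate early genes were at -0.35 (-0.50 to -0.20) in this class. The 11 endothelial markers summed to 510 CPM (Esam at 0) and 298 CPM (Pecam1, Cldn5, Kdr and Flt1 at 0), and the 7 B cell markers to 722 CPM (4 at 0, Cd79a, Ighm and Ighd included) and 175 CPM (Ebf1 alone above 0). The part of other cells' RNA in the lower Klf2 was not tested.

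In the remaining classes 1 library held fewer than 20 cells, and the values are given side by side. In T or NK cell-like cells (13 and 76 cells) Klf2 was 1470 and 1335 CPM and Klf6 735 and 456 CPM, while 11 endothelial markers summed to 2105 and 247 CPM. The 5 lymphocyte genes that Klf2 controls all had at least 20 UMIs there. Their median log2 ratio was 0.07, against -0.06 over 1734 genes of this class. Among them Ccr7 was 267 and 289 CPM, and the egress receptor S1pr1 was 100.2 and 110 CPM. In macrophage or monocyte-like cells (9 and 35 cells, 15 of the latter in a Chil3-led cluster with 0 Normoxia cells) Klf4 was 120 and 274 CPM. In the unnamed cluster 8, led by Retnla and C1qa with macrophage markers (19 and 10 cells), Klf2 was 1920 and 414 CPM and Klf4 704 and 91.9 CPM, and 28.7% and 59.3% of the Klf2 UMIs came from 1 cell.

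Summed over all retained cells, where a change in the mix of cells and a change of level per cell cannot be told apart, Klf2 was at 0.06 (-0.03 to 0.15) and Klf4 at -0.25 (-0.39 to -0.10). Klf3 was at 0.78 (0.49 to 1.08), Klf13 at 0.41 (0.17 to 0.65), Klf9 at -0.39 (-0.63 to -0.16) and Klf6 at -0.57 (-0.74 to -0.39). In cells with a low immediate early share Klf4, Klf6 and Klf9 turned to 0.30, 0.41 and 0.16, and Klf2 was at 0.59. The members together were 3587 and 3528 CPM.

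Over 9 profiles of a class in a library with at least 20 cells, which share library and depth, Klf7 and Klf9 were the members most like Klf4, with Pearson correlations of 0.84 and 0.80 of log2 levels, and Klf6 the member most like Klf2, at 0.65. Klf2 and Klf4 correlated at 0.08. Among 2881 genes the highest correlations were those of Cwc15, Arid4b, Tmem243, Tapbpl and Ppp2r5a with Klf2 (0.90 to 0.94) and of Pigt, Serinc1, Sod1, Anxa3 and Snrnp27 with Klf4 (0.95 to 0.97).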

How the data were processed

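The deposited matrices hold UMI counts of each gene in each barcode, not normalized, for 2 libraries made with the Chromium Next GEM Single Cell 3' kit. Per the file headers the count matrices came from Cell Ranger 3.1.0, and the labels name mm10. Replicates are mentioned in the labels, yet each group has 1 matrix here and was taken as 1 library. The study's text describes a whole-lung preparation from wild-type hypoxic mice, joined with a published set of hypoxic and normoxic lung cells. The labels instead describe sorted cells of the NG2tdT cross. Whether the libraries here are those that the study analysed is not given in the sources used here. The 8 members and all lists were chosen with earlier results of these data known.

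The cut-offs in the study's methods were kept: a barcode needed 200 to 6000 genes and no more than 5% mitochondrial UMIs (293 of 373 passed in Normoxia, 453 of 613 in Hypoxia). Clustering used genes seen in 3 or more cells. The study's results give a maximum of 4000 genes instead, which was run as an alternative. Cells were clustered with scanpy 1.11.5 (10000 UMIs per cell, 2000 variable genes without the 93 genes of the members and lists, 15 components, 15 neighbours, Leiden resolution 1.0). A marker counted for a cluster when detected in at least 25% of its cells at 2 times the median CPM over clusters. A name needed at least 3 markers, none of another class in excess among the 10 leading genes, and a lead of 2 markers over the next class, the last set after the clusters were seen. Clusters of shallow cells also needed a leading marker.

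UMIs were summed per library and class. CPM have exact Poisson intervals, ratios exact conditional binomial intervals and shares exact Clopper-Pearson intervals. A count of 0 allows up to 3 counts. Called genes had at least 20 UMIs over both libraries and a fold of at least 2. Genes of other lists were named when they also had an interval without equality (up to 4 per list, by size), and Map3k3, Mef2c, Thbd, Tek, Ace, Edn1 and the lymphocyte genes for their role, after their values were seen. Correlations used log2(CPM + 10) of genes with a mean of at least 50 CPM, and the 5 highest are given. Doublets were not removed; Scrublet marked 1 Normoxia and 3 Hypoxia cells. On counts simulated for the endothelial comparison (5869 genes, 200 changed), 96.7% of intervals held the truth. There 66.0% of genes changed 2 fold and 91.5% of those changed 4 fold were recovered. The counts were drawn from the counting model that the intervals assume, so this coverage was fixed in advance. They carried no variation between cells, clusters or animals, so the error from these was not tested. Gene positions are from GENCODE M21, and upstream sequences from RefSeq on GRCm38.p6. Some listed genes are not reported here by name.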

Additional observations from a re-analysis of the deposited data

Results flagged for a closer look

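Klf9 differed in direction between cell groups. Its log2 ratio of Hypoxia to Normoxia was 0.66 (0.09 to 1.21) in fibroblast-like cells. For the unnamed cluster 2 the value was 1.07 (0.28 to 1.92), in cells whose summed fibroblast markers were 4973 CPM in Normoxia and 190 CPM in Hypoxia, alveolar type 2 markers 17122 and 3147 CPM, and airway markers 68062 and 98995 CPM. In the Plvap-led endothelial cell-like cluster 9 it was -0.87 (-1.57 to -0.19). Each interval left out equality for counting error alone. The difference between the groups was not tested, since each rests on 1 library per condition.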

How the results depend on the processing

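In endothelial cell-like cells Klf2 stayed lower in Hypoxia under all 18 alternatives (log2 ratio -0.58 to -0.18) and Klf4 likewise (-0.36 to -0.16). Klf2 moved by more than its counting interval in cells gated on endothelial markers (-0.18), with cluster 2 counted as endothelial (-0.26) and as the mean of the 3 clusters (-0.58), the last 2 chosen after seeing the data. The share of Klf2 and Klf4 among member UMIs moved to 70.2% in Hypoxia with cells thinned to 1000 UMIs, to 66.7% in Hypoxia as the mean of the 3 clusters, and to 74.3% in Normoxia in cells with a low immediate early share. Over all retained cells Klf4 was at -0.45 with equal weight per cell. In cells with a low immediate early share over all retained cells, Klf2 was at 0.59, Klf4 turned to 0.30, Klf6 to 0.41 and Klf9 to 0.16, and with thinning Klf7 turned to -0.057. The cause was not tested. Klf9 in endothelial cell-like cells ranged from -0.34 to 1.16 and Klf13 from -0.11 to 0.47, so no direction is given for them. No paired analysis was possible because each group is 1 library. Depth limits Klf10 most, with 10 and 28 UMIs in endothelial cell-like cells.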
